A study of Mus musculus with 6 samples.

Results

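Cytosolic ribosomal protein genes were examined in quadriceps, the thigh muscle that extends the knee, of 20-week-old C57BL/6 mice. They were taken as the rows of the deposited count table whose mouse symbol is Rpl or Rps followed by a number and at most 1 lower-case letter, or is Rplp0, Rplp1, Rplp2 or Rpsa. This gave 80 of 37477 Ensembl IDs, by symbol 48 of the large and 32 of the small ribosomal subunit. The row with the symbol Rpl24, counted among the 48, carries an ID that the GENCODE M21 annotation gives to another gene, Zbtb11. Knockout (KO) mice carried a muscle-specific deletion of the gene of estrogen receptor alpha, called MERKO in the series' design text, and were set against wild-type (WT) mice of the same strain and age. Each genotype had 3 RNA-seq libraries. The driver of the deletion, the deleted part, the sex and the number of animals per library were not stated in the labels, so the p-values below measure the spread between these libraries.

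The cytosolic ribosome translates messenger RNA with a small subunit that reads the message and a large subunit that joins amino acids, and most of its proteins are present once in each ribosome. Their mRNAs start with a run of pyrimidines (a TOP motif), through which the kinase mTOR and the RNA-binding protein LARP1 adjust how much of them is translated. In skeletal muscle the number of ribosomes is known as a limit on protein synthesis during growth of fibres. Ribosomal protein mRNAs are also among the most frequent sources of processed pseudogenes, copies without introns that were reverse-transcribed back into the genome and that can share reads with the parent gene.

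Libraries held 7809612 to 8560244 counts in KO and 7388365 to 7733401 in WT. Esr1, the deleted gene, was at 2.60, 1.93 and 1.98 CPM (counts scaled to the size of the library) in KO libraries and at 6.70, 5.61 and 5.58 CPM in WT libraries, and the groups did not overlap. Its log2 difference was -1.45 ± 0.23 (SE), with an adjusted p of 0.145 in edgeR's quasi-likelihood test over 13848 genes. The authors' deposited table gives Esr1 an adjusted p of 0.000152. Fibre markers were abundant, and 10 of them summed to 196850 to 214380 CPM in KO and 207130 to 245110 CPM in WT. The myosin profile went against the label, since mouse quadriceps is known as a mainly fast muscle: the slow myosin gene Myh7 averaged 21018 ± 1186 CPM in KO and 21746 ± 2635 CPM in WT (SD, n = 3 each), while Myh4, of the fastest fibres, averaged 491 ± 89.2 CPM in KO and 303 ± 126 CPM in WT. Why a slow profile appeared was not tested.

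Ribosomal protein genes showed small differences between KO and WT, most of them above 0, and no member passed the test. Of the 80 members, 78 passed the filter on low counts, 46 of the large and 32 of the small subunit. At the threshold of 0.05 on the adjusted p of edgeR's quasi-likelihood test, 0 members were called, beside 0% of all 13848 genes tested. DESeq2 and limma voom called 0 members as well. At an unadjusted p under 0.05, 2 members were higher in KO (Rps3a and Rps9), beside 1.99% of all genes, and 1 was lower (Rpl17), beside 2.27% of all genes. The authors' deposited table gives all 80 members an adjusted p of 1.

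In direction, 62 members were higher in KO and 16 were lower. The higher ones were 79.5% of those tested, beside 49.3% of all genes. The median log2 difference of KO from WT was 0.08 for members, with an interquartile range from 0.02 to 0.12, and 0.00 for all genes, with an interquartile range from -0.11 to 0.10. Members ranged from -0.20 for Rpl17 to 0.42 for Rps3a. The median standard error was 0.10 log2 units for members and 0.16 for all genes, so the typical difference was smaller than its own error. All 78 intervals of 95% lay between -0.62 and 0.88 log2 units. In bulk tissue, a changed share of cells rich in a transcript and a changed amount of it per cell cannot be told apart.

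**Figure D1:**
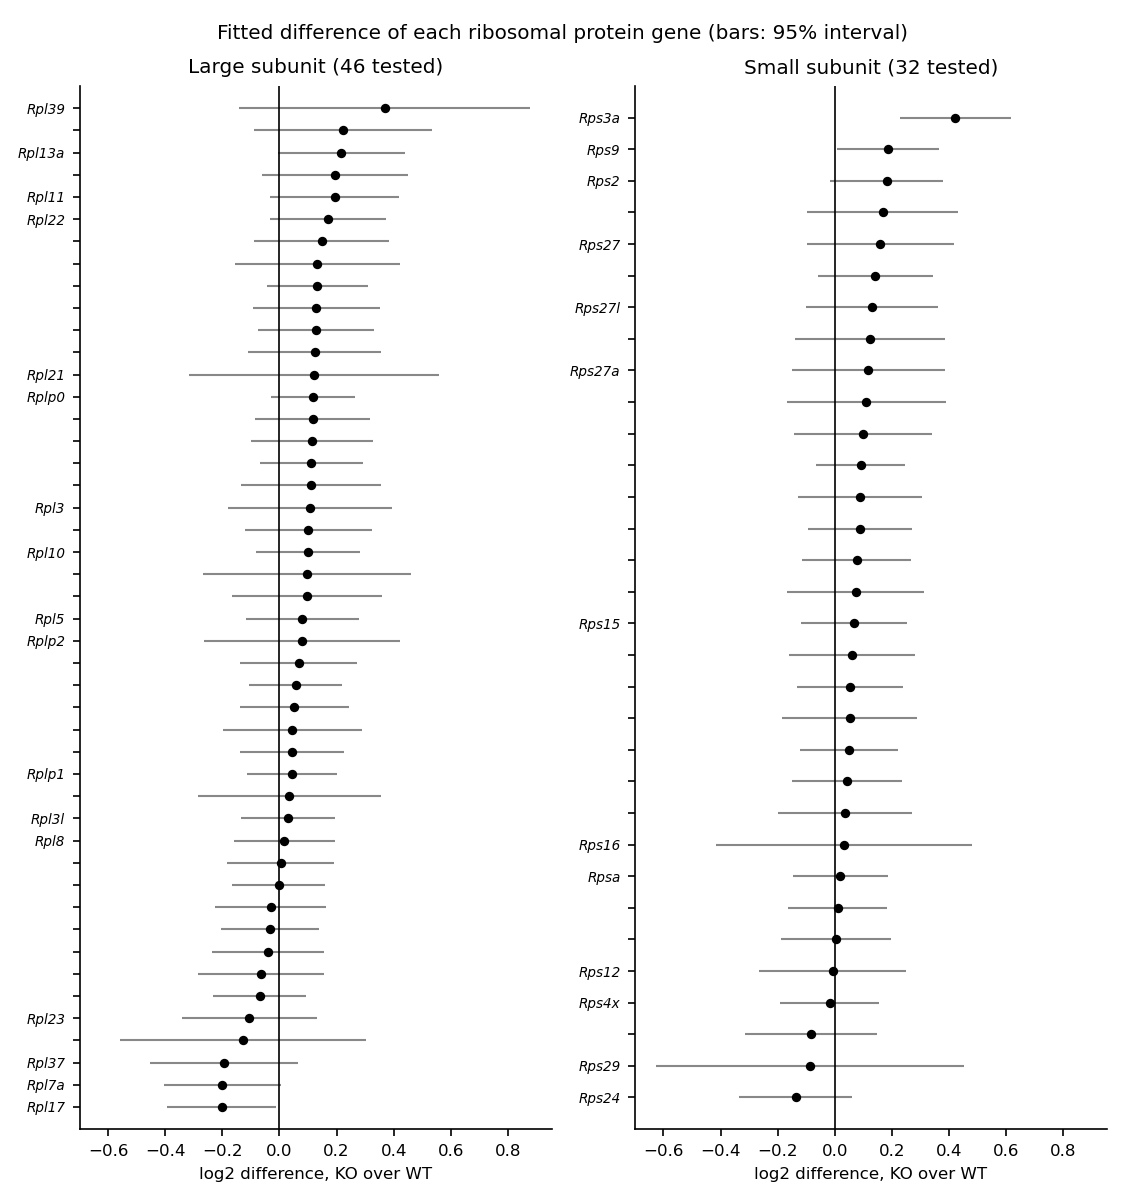
Fitted log2 difference of KO over WT (horizontal axis) for each of the 78 ribosomal protein genes tested, large subunit at left and small subunit at right, each sorted by size; labels mark genes described in the text. Points are edgeR estimates and bars are 95% intervals; 2 intervals lie wholly above 0 and 1 lies wholly below it.

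The direction was shared by both subunits. In the large subunit 35 members were higher in KO and 11 were lower, and the median was 0.09. In the small subunit 27 were higher and 5 were lower, and the median was 0.07. The 3 KO values exceeded the 3 WT values for 5 members, among them Rps3a, Rplp0 and Rps15, beside 4.96% of all genes. They lay under the 3 WT values for 1 member, Rpl17, beside 5.45% of all genes. Rps15 is named here after its values were seen.

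Single libraries decided much of the median. KO replicate 2 held the highest value of 31 of the 78 members and KO replicate 3 that of 25, while KO replicate 1 held the highest value of 1 member and the lowest of 18. WT replicate 3 held the lowest value of 34 members. Without KO replicate 2 the median was 0.03, with 51 members higher, and without WT replicate 3 it was 0.04, with 49 higher. Without KO replicate 1 it was 0.13, with 64 higher. KO replicate 1 thus stood apart from the other two KO libraries in these counts.

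**Figure D2:**
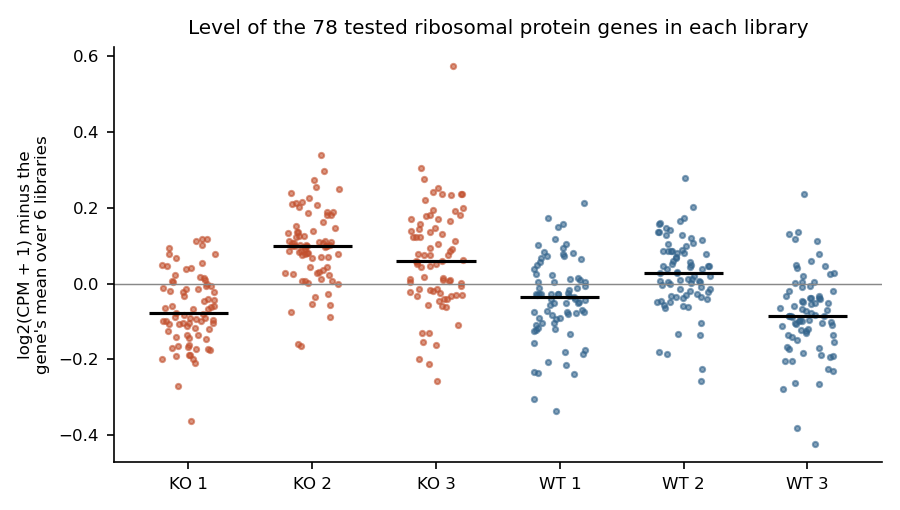
Level of each of the 78 tested members in each library as log2(CPM + 1) minus that gene's mean over the 6 libraries (vertical axis), with KO libraries at left and WT libraries at right; points are genes and black lines medians. Medians were -0.08, 0.10 and 0.06 in KO replicates 1, 2 and 3 and -0.03, 0.03 and -0.09 in WT replicates 1, 2 and 3.

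Summed over members, ribosomal protein genes took 0.401%, 0.448% and 0.459% of counts in KO replicates 1, 2 and 3, against 0.4001%, 0.428% and 0.409% in WT replicates 1, 2 and 3. The means were 0.436% ± 0.0308 in KO and 0.412% ± 0.0140 in WT (SD, n = 3 each). The groups overlapped, and the difference of 0.0239 percentage points was smaller than the SD among KO libraries. Ttn, the gene of the giant sarcomere protein titin, took 14.5%, 14.5% and 13.2% of counts in KO libraries and 16.8%, 15.2% and 14.8% in WT libraries, without overlap. Genes of the mitochondrial genome took 9.53%, 7.05% and 6.14% in KO libraries and 6.94%, 7.26% and 7.46% in WT libraries. With both left out of the total, members took 0.556% ± 0.0245 in KO and 0.534% ± 0.0149 in WT (SD, n = 3 each).

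**Figure D3:**
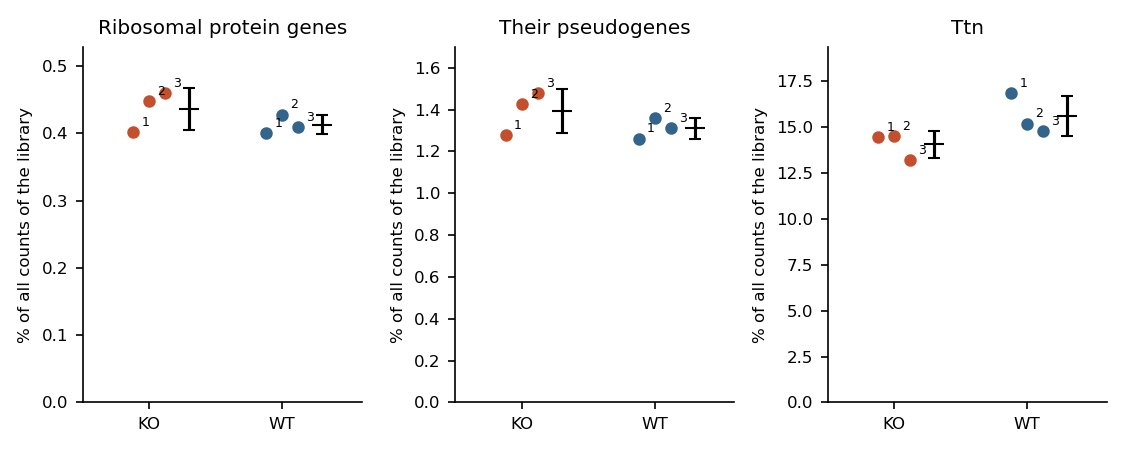
Share of each library's counts in ribosomal protein genes, in their annotated pseudogenes and in Ttn (vertical axes, percent, from 0), with KO at left of WT; numbered points are replicates and the black marks are mean ± SD (n = 3). The ribosomal and pseudogene shares overlap between groups, and the 3 KO values of Ttn lie below the 3 WT values.

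Transcript length moved with the differences across all genes. Spearman's rho between the log2 difference and exonic length was -0.19 over 13224 genes, which share their libraries. Ribosomal protein genes are short: 49 of the 78 tested lay in the shortest of 4 groups of equal size, of 39 to 2339 exonic bases. There the median was 0.08 for the members and 0.04 for the other genes. In the next group by length, 24 members had a median of 0.07 and the other genes 0.01. Macrophage markers also leaned higher, 6 of 8 tested, and their summed level was 141 to 157 CPM in KO and 111 to 150 CPM in WT. Adipocyte markers were higher for 5 of 6, at 85.2 to 90.1 CPM in KO and 58.3 to 90.4 CPM in WT. Fibroblast markers were higher for 4 of 7, muscle fibre markers for 5 of 10 and endothelial markers for 3 of 8. Satellite cell markers were higher for 1 of 3 and blood markers for 0 of 4. The part of these cell types in the ribosomal values was not tested.

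Among the proteins of the small subunit, Rps3a stood furthest from WT. Rps3a sits at the side of the small subunit where the mRNA leaves and initiation factor eIF3 binds. Its gene (ENSMUSG00000028081, named Rps3a1 in GENCODE M21) lies at chr3:86137940-86142702 on the minus strand in mm10. It was at 79.995, 91.7 and 91.9 CPM in KO libraries, against 59.7, 63.2 and 73.7 CPM in WT libraries. The groups did not overlap, and the log2 difference was 0.42 ± 0.09 (SE), with a 95% interval from 0.23 to 0.62. Its p in edgeR's quasi-likelihood test was 0.000283 and its adjusted p 0.98, which did not pass. Over 16 other settings the adjusted p ranged from 0.0035 to 1.00, and the single setting that passed was the fit without a filter on low counts.

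Most counts that carry the Rps3a sequence lay in rows of its copies. Its annotated pseudogenes held 85.7% of the counts of the family, led by Rps3a2 on chromosome 14, Rps3a3 on chromosome 13 and Gm13408 on chromosome 2. Over the 792 coding bases, Rps3a2 differs from Rps3a at 4 positions (99.5% identity), and Rps3a3 and Gm13408 differ at 9 aligned positions each (98.9% identity). The coding stretch from position 579 to 668, from the GENCODE M21 transcripts, was chosen as the 90 bases with the most differences from these 3 copies. Even there, a read can be told apart only by a few bases. Capitals mark the 6 positions at which the copies vary.
Rps3a: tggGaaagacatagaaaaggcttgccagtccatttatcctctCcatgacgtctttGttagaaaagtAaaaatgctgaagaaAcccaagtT
Rps3a2: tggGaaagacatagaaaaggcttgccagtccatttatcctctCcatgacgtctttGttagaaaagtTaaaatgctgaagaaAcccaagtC
Rps3a3: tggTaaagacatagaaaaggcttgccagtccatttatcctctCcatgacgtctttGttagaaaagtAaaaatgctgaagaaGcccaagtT
Gm13408: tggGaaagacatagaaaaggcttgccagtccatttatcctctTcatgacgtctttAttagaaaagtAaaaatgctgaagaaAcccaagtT
Counted from 1 at the start codon, with the base of Rps3a first, the substitutions in this stretch are A645T and T668C in Rps3a2, G582T and A660G in Rps3a3, and C621T and G634A in Gm13408.

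The 3 most counted copies differed by less than the parent row. Rps3a2 had 1790, 1959 and 1956 counts in KO libraries, against 1517, 1686 and 1613 in WT libraries, a log2 difference of 0.11 ± 0.08 (SE) after scaling. Rps3a3 had 1034, 1170 and 1171 counts in KO and 1069, 1137 and 995 in WT, a log2 difference of -0.06 ± 0.09 (SE). In CPM, KO and WT libraries overlapped for both copies. Gm13408, at 0.13 ± 0.08 (SE), had 97.2, 103 and 108 CPM in KO and 89.2, 99.8 and 93.8 CPM in WT, which also overlapped. Gm13935, a copy with fewer counts, had 6.86, 5.68 and 6.44 CPM in KO and 2.95, 3.83 and 5.70 CPM in WT, with overlap and a log2 difference of 0.60 ± 0.23 (SE), higher than that of Rps3a. With the counts of Rps3a and all its copies summed, the log2 difference was 0.12, with an adjusted p of 0.99 in edgeR's quasi-likelihood test.

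**Figure D4:**
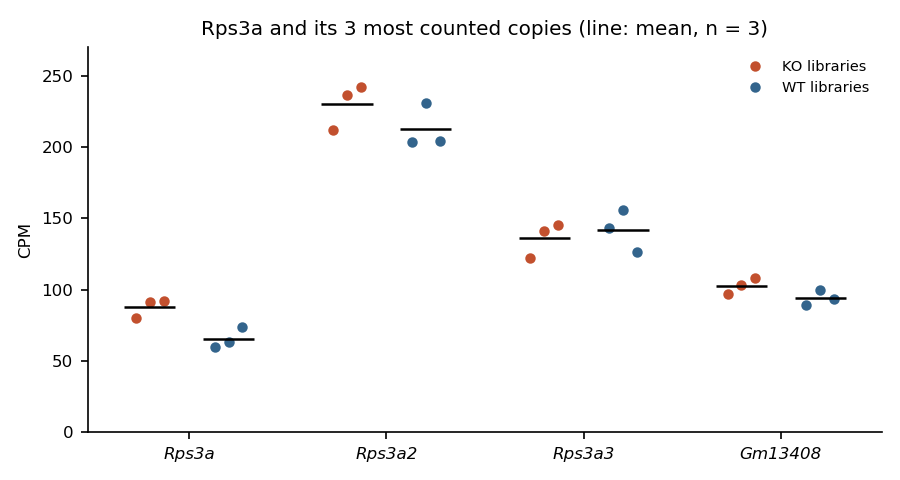
CPM (vertical axis, from 0) of Rps3a and its 3 most counted pseudogenes, with KO libraries at left of WT libraries for each gene; points are libraries and black lines means (n = 3). KO and WT libraries separate for Rps3a and overlap for Rps3a2, Rps3a3 and Gm13408.

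Other small subunit proteins differed by less. Rps9, which lies near the mRNA entry channel and bears on the accuracy of decoding, had 100.2, 109 and 116 CPM in KO libraries, against 97.7, 101 and 86.1 CPM in WT libraries. Groups overlapped by 1 library, KO replicate 1 lying below WT replicate 2, and the log2 difference was 0.19 ± 0.08 (SE), with an adjusted p of 0.989 in edgeR's quasi-likelihood test. No pseudogene copy of Rps9 with a row had counts. Copies without a row could not be counted, so its row need not carry all counts of the family. Rps2, another protein of the entry channel, had 67.0, 75.1 and 82.7 CPM in KO and 64.3, 72.6 and 61.2 CPM in WT, with a log2 difference of 0.18 ± 0.09 (SE). On the lower side, Rps24, needed for maturation of the small subunit's RNA and mutated in some human Diamond-Blackfan anaemias, had 57.4, 53.3 and 48.2 CPM in KO and 64.3, 54.0 and 56.4 CPM in WT, a log2 difference of -0.14 ± 0.09 (SE). Groups overlapped for both.

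Rps27a is made as a fusion with ubiquitin, and Rpsa is also known as a laminin receptor. Rps27a had 16.2, 20.2 and 22.2 CPM in KO libraries and 17.3, 19.3 and 17.4 CPM in WT libraries. Rpsa had 118, 132 and 123 CPM in KO and 130.1, 123 and 115 CPM in WT. The groups overlapped for both genes. Rps4x, the X-linked form of a core small subunit protein, had 63.0, 69.4 and 70.9 CPM in KO and 71.7, 69.1 and 64.9 CPM in WT, which also overlapped.

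In the large subunit, Rpl17 was the one member whose KO values all lay under its WT values. It lines the tunnel through which the new protein leaves the ribosome. Rpl17 was at 53.2, 48.6 and 43.1 CPM in KO libraries, against 55.6, 55.0 and 56.2 CPM in WT libraries. The log2 difference was -0.20 ± 0.09 (SE), with an adjusted p of 0.989 in edgeR's quasi-likelihood test. The KO libraries spread more widely than the WT ones. Its copies held 90.1% of the family's counts, and with these summed the log2 difference was -0.02.

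Rpl7a, Rpl37 and Rpl23 followed Rpl17 on the lower side. Rpl7a, a protein needed early in maturation of the large subunit, had 29.9, 32.3 and 27.5 CPM in KO and 34.8, 36.2 and 32.1 CPM in WT. Its groups overlapped by 1 library of each genotype, at a log2 difference of -0.20 ± 0.10 (SE). Rpl37 had 19.6, 16.9 and 17.0 CPM in KO and 17.5, 21.1 and 22.6 CPM in WT, and Rpl23, which faces the small subunit, had 19.4, 25.4 and 23.8 CPM in KO and 25.05, 23.7 and 24.97 CPM in WT. Groups overlapped for both, and the log2 difference of Rpl37 was -0.19 in its own row and 0.05 with its copies summed.

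On the higher side stood Rpl13a and Rpl11. Rpl13a, which in human monocytic cells leaves the ribosome after interferon treatment to silence inflammatory mRNAs, had 39.2, 43.7 and 47.4 CPM in KO libraries and 32.3, 38.4 and 41.3 CPM in WT libraries. Groups overlapped, with a log2 difference of 0.22 ± 0.11 (SE), and 35.4% of its exonic bases overlap exons of other genes. Rpl11, which binds the smallest ribosomal RNA of the large subunit together with Rpl5 and can inhibit the p53 ligase Mdm2, had 32.2, 36.5 and 43.1 CPM in KO and 34.3, 31.6 and 31.8 CPM in WT. KO replicate 1 lay within the WT range for Rpl11, and the log2 difference was 0.19 ± 0.11 (SE). Rpl39, which lines the exit tunnel as well, had the largest log2 difference of the large subunit, 0.37 ± 0.22 (SE), from 14.0, 17.9 and 24.8 CPM in KO and 13.7, 17.9 and 12.3 CPM in WT. It rests on KO replicate 3.

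The stalk of the large subunit, built of Rplp0 with Rplp1 and Rplp2, recruits elongation factors to the ribosome. Rplp0 had 283, 300.0 and 287 CPM in KO libraries, against 268, 271 and 262 CPM in WT libraries. The groups did not overlap, at a log2 difference of 0.12 ± 0.07 (SE) with an adjusted p of 0.989 in edgeR's quasi-likelihood test. Rplp1 had 157, 170.0 and 152 CPM in KO and 156, 160.4 and 149 CPM in WT. Rplp2 had 7.22, 8.70 and 9.41 CPM in KO and 7.64, 8.48 and 7.86 CPM in WT. The groups overlapped for both, at log2 differences of 0.04 and 0.08.

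Counts in the rows of ribosomal protein genes were only part of those that carry their sequences. A search of GENCODE M21 transcripts for matches of at least 80% identity over at least 50% of a member's coding length found 1715 pseudogene copies. Of these, 855 had a row in the table and 560 had counts. The search covered 79 members, and 69 of them had at least 1 pseudogene with counts. Pseudogenes held 109398, 119563 and 115429 counts in KO libraries and 97516, 100367 and 101286 in WT libraries, where the members held 34353, 37546 and 35865 in KO and 30941, 31598 and 31635 in WT. The ratio of pseudogene to member counts was 3.196 ± 0.0196 in KO and 3.177 ± 0.0250 in WT (SD, n = 3 each), a difference smaller than the spread. For 61 members the copies held more counts than the member itself.

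The pseudogenes were mostly higher in KO as well. Of the 276 tested, 217 were higher in KO and 59 lower, beside 49.3% of all genes higher. How reads matching several loci were counted was not given, so these rows are not separate evidence from those of the members. Their median log2 difference was 0.09. In edgeR's quasi-likelihood test 0 passed the adjusted threshold of 0.05. An unadjusted p under 0.05 was reached by 11 of the 276, beside 1.99% of all genes on the higher and 2.27% on the lower side. The 3 with the most counts were Gm15500, a copy of Rpl5, Gm8730, a copy of Rplp0, and Rps6-ps4, a copy of Rps6. Gm15500 had 278, 336 and 313 CPM in KO and 284, 297 and 294 CPM in WT, where Rpl5 itself had 89.1, 118 and 108 CPM in KO and 94.6, 102.3 and 101 CPM in WT. Groups overlapped in both rows. Summed with all their copies, the members had a median of 0.08, with 63 higher and 15 lower. The 8 tested members without a counted pseudogene (among them Rpl23, Rpl3l, Rpl4, Rpl8, Rps20, Rps3 and Rps9) had a median of 0.02, with 6 higher and 2 lower, and the 69 with one had a median of 0.09. The difference between these subsets was not tested.

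Rps12, a small subunit protein, was a case in which exact and near-exact copies held nearly all of a family's counts. Its row held 141, 122 and 123 counts in KO and 110, 124 and 120 in WT. Rps12-ps3 on chromosome 19, listed as protein-coding in GENCODE M21 and identical to Rps12 over all 396 coding bases, held 1514, 1744 and 1677 counts in KO and 1402, 1440 and 1457 in WT. Rps12-ps3 and Rps12l1, the 2 counted copies identical over the whole coding length, held 65.2% of the family's counts, and all copies together held 97.0%. The row of Rps12 differed by -0.01 on the log2 scale, and by 0.07 with all copies summed. The first 60 coding bases of each, from the GENCODE M21 transcripts, are shown because no read within them can be assigned by sequence.
Rps12: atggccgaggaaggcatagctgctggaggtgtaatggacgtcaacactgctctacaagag
Rps12-ps3: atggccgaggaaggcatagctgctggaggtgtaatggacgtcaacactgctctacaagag
No letter is in capitals, since no position differs. Among the counted pseudogenes of all members, 17 were identical to a member over its whole coding length.

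Levels of the members, per kilobase of their coding transcript, covered a wide range although the proteins are used in near-equal numbers. They depend on the 1 annotated transcript taken for each gene. That transcript had 1856 bases, 480 of them coding, for Rpl21, 964 and 345 for Rplp2, and 3706 and 357 for Rps20, but 383 and 315 for Rpl36. Which transcripts were present in the muscle was not tested. The highest was Rplp1, at 320 ± 18.3 CPM per kb in KO and 311 ± 11.99 in WT (SD, n = 3 each). Also among the highest was Rpl8, near the peptidyl transferase centre, at 229 ± 25.4 in KO and 226 ± 9.27 in WT. In CPM, Rpl8 had 172, 199 and 214 in KO libraries and 189, 201.7 and 187 in WT libraries. KO replicate 1 was the lowest library and KO replicate 3 the highest for Rpl8, so the groups overlapped. The lowest were Rps29, at 6.72 in KO and 7.14 in WT, Rps16, at 4.69 in KO and 4.59 in WT, and Rpl21, at 3.37 in KO and 3.11 CPM per kb in WT. Rps29 had 23, 19 and 23 counts in KO and 22, 21 and 20 in WT, Rps16 had 40, 52 and 37 in KO and 36, 44 and 35 in WT, and Rpl21 had 46, 56 and 53 in KO and 51, 46 and 33 in WT. Groups overlapped for all 3, and such counts leave wide intervals, from -0.62 to 0.45 log2 units for Rps29. Copies held 97.9%, 89.3% and 94.6% of the family's counts of these 3 genes, against 40.0% for Rplp1 and 0% for Rpl8. All such percents cover only copies with a row, which 855 of the 1715 pseudogene copies had.

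Across 77 members, Spearman's rho between the level per kilobase and the percent of family counts in copies was -0.42. The points share libraries, and a row's own counts enter both measures. The 9 members with under 5% in copies had a median of 85.8 CPM per kb in KO and 84.1 in WT. The 61 with at least 50% in copies had a median of 45.7 in KO and 42.9 in WT. The log2 difference between genotypes had a rho of 0.05 with the percent in copies. Rplp2 was an exception on the low side, at 8.76 CPM per kb in KO and 8.29 in WT with 0.763% in copies.

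**Figure D5:**
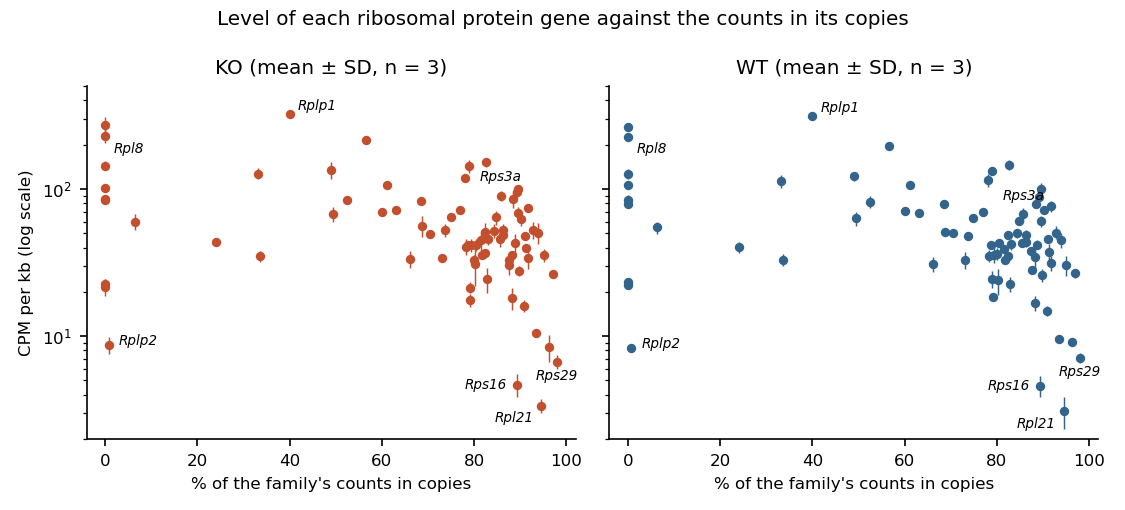
Mean level of 77 ribosomal protein genes in CPM per kb of coding transcript (vertical axis, log scale) against the percent of the family's counts that lay in copies (horizontal axis), KO at left and WT at right; bars are SD (n = 3). The lowest levels, those of Rps29, Rps16 and Rpl21, lie at 89.3% or more in copies, while Rplp2 is low at 0.763%.

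Paralogs used in few tissues were compared with their partners. Rpl3l replaces Rpl3, a protein near the peptidyl transferase centre, in striated muscle. Their coding sequences differ at 308 of 1200 aligned positions. The first 90 coding bases, from the GENCODE M21 transcripts, are shown with the 21 differing positions in capitals.
Rpl3: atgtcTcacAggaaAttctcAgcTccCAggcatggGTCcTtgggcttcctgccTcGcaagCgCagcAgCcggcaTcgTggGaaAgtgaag
Rpl3l: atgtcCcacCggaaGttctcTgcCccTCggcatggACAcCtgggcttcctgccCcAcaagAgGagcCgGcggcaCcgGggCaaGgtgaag
Rpl3l had 116, 120.3 and 118 CPM in KO libraries and 115, 125 and 107 CPM in WT libraries, and Rpl3 had 27.9, 40.1 and 30.8 CPM in KO and 26.7, 33.5 and 31.6 CPM in WT. Groups overlapped for both. Rpl3l took 80.6%, 75.0% and 79.2% of the counts of the pair in KO and 81.1%, 78.9% and 77.3% in WT, a difference of -0.81 percentage points with a p of 0.7 in an exact two-sided permutation test. Copies of Rpl3 held 82.8% of the Rpl3 family's counts and are not in this share. With the copies of both genes counted, the share of Rpl3l was 43.4%, 32.4% and 36.0% in KO and 44.2%, 40.4% and 39.8% in WT, and the groups overlapped.

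Rps27l and Rpl22l1 are close relatives of Rps27 and Rpl22. Rps27l had 20.9, 23.1 and 21.7 CPM in KO libraries and 17.9, 21.2 and 20.8 CPM in WT libraries, and Rps27 had 17.3, 17.5 and 15.5 CPM in KO and 14.5, 16.4 and 14.2 CPM in WT. Rpl22 had 54.8, 60.8 and 65.1 CPM in KO and 56.8, 56.9 and 47.0 CPM in WT. Groups overlapped for all 3. Rps27l took 54.8%, 56.8% and 58.3% of the counts it shares with Rps27 in KO libraries and 55.4%, 56.4% and 59.4% in WT libraries (p = 0.8, exact two-sided permutation test). Copies held 86.4% of the counts of the Rps27 family, led by Rps27rt, which is identical to Rps27 over the coding length, and they are not in this share. With the copies of both genes counted, the share of Rps27l averaged 18.7% ± 0.740 in KO and 19.7% ± 1.74 in WT (SD, n = 3 each). Rps27rt itself had 97.0, 114 and 112 CPM in KO and 90.3, 98.7 and 88.2 CPM in WT, with overlap. Without copies, Rpl22l1 took 3.14%, 4.91% and 8.997% of the counts it shares with Rpl22 in KO and 5.57%, 5.88% and 5.60% in WT (p = 1, exact two-sided permutation test). Adjusted over the 3 pairs, each p was 1, and with 3 libraries against 3 such a test cannot go below 0.1. The share of Rpl22l1 averaged 5.68% ± 3.00 in KO and 5.68% ± 0.174 in WT (SD, n = 3 each), and the range of the KO libraries held all WT values. The testis paralogs were near absence: Rpl10l had 0 counts in all 6 libraries, where a count of 0 allows up to 3 counts each, and Rpl39l had 2 counts in KO replicate 3 alone. Rpl10, the partner of Rpl10l, had 68.0, 78.7 and 81.0 CPM in KO and 73.4, 72.2 and 66.8 CPM in WT, with overlap.

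In the lists of other genes of the translation machinery, 0 genes passed edgeR's quasi-likelihood test at an adjusted threshold of 0.05. Of 6 ribosomal proteins tested whose names fall outside the rule, 5 were higher in KO and 1 was lower (median log2 difference 0.12). The most abundant, Gnb2l1, the scaffold RACK1 of the small subunit, had 233, 291 and 285 CPM in KO libraries and 255, 247 and 238 CPM in WT libraries, and groups overlapped. Of 27 initiation factors, 19 were higher and 8 were lower (median log2 difference 0.02). Eif3f, a subunit of eIF3, had 41.5, 42.0 and 43.1 CPM in KO and 35.5, 39.2 and 36.8 CPM in WT, without overlap, at a log2 difference of 0.18 ± 0.09 (SE). Of 10 elongation factor genes, 6 were higher and 4 were lower (median log2 difference 0.01). Eef2k, the kinase that inhibits elongation factor eEF2, was at 27.0, 34.6 and 31.6 CPM in KO and 39.9, 41.4 and 33.6 CPM in WT, with overlap.

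Other mRNAs known to carry a TOP motif were higher for 6 and lower for 9 of 15 (median log2 difference -0.02). Among them Hnrnpa1, an RNA-binding protein, was at 7.46, 7.97 and 8.05 CPM in KO and 12.6, 11.9 and 7.99 CPM in WT. Pabpc1, which binds poly(A) tails, was at 11.0, 11.5 and 9.16 CPM in KO and 14.1, 13.5 and 11.8 CPM in WT. The groups overlapped for Hnrnpa1, by WT replicate 3, and not for Pabpc1. Of 48 ribosome biogenesis genes, 26 were higher and 22 were lower (median log2 difference 0.01). Sbds, which frees the new large subunit from a joining inhibitor, was at 21.8, 19.7 and 19.2 CPM in KO and 24.4, 23.5 and 23.5 CPM in WT, without overlap. Its log2 difference was -0.23 ± 0.10 (SE).

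Regulators of ribosomal protein transcription and translation were mostly lower in KO. Of 16 tested, 3 were higher in KO and 13 were lower (median log2 difference -0.06). Their summed level was 581, 583 and 544 CPM in KO libraries, against 599, 583 and 607 CPM in WT libraries, where KO replicate 2 and WT replicate 2 were nearly equal. Max, the partner of the transcription factor Myc, had 7.34, 8.22 and 6.31 CPM in KO and 11.3, 9.85 and 9.76 CPM in WT. Rps6kb2, a kinase of the ribosomal protein S6, had 9.47, 9.18 and 8.91 CPM in KO and 10.9, 13.5 and 11.3 CPM in WT. Eif4ebp1, which holds back cap-dependent initiation, had 19.9, 20.9 and 23.0 CPM in KO and 19.4, 17.4 and 18.9 CPM in WT. All 3 genes had groups that did not overlap. Their log2 differences were -0.49 ± 0.16, -0.37 ± 0.15 and 0.20 ± 0.11 (SE), none of which passed. Named genes of these other lists were taken by the smallest unadjusted p, a choice that favours groups without overlap. Over all genes, the 3 KO values lay above the 3 WT values for 4.96% and below them for 5.45%.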

How the data were processed

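Raw whole-number counts per Ensembl gene were deposited by the authors in 1 table for the 6 libraries. The table also holds the authors' log2 fold change of KO over WT and an adjusted p-value for each gene, both deposited under edgeR's column names. TopHat 1.3.3, edgeR and mm10 are named in the submitters' processing notes, with no role or order. Which program counted reads, with which annotation, and what was done with reads matching several loci was not given in the sources used here, so counts of members and their copies are uncertain. Per the labels' protocols, Trizol-extracted RNA was made into libraries using an Illumina TruSeq RNA kit. That kit keeps no strand unless its stranded form is used, which the labels do not state, and 37 of the 80 members have exonic bases that overlap another gene.

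Of 37506 rows, 29 with a repeated Ensembl ID and the same counts were merged. No per-sample column was left unused. The row with the symbol Rpl24 carries an ID that GENCODE M21 names Zbtb11, so its counts may be those of another gene. It was left out of the search for copies but kept among the members tested, where it was lower in KO. Without it, 62 of 77 members were higher in KO and 15 were lower, with a median log2 difference of 0.08. Genes were filtered with filterByExpr, scaled with TMM and tested two-sided on genotype in edgeR 4.0.16 (R 4.3.3; robust quasi-likelihood F-test), with Benjamini-Hochberg adjustment over 13848 genes and a threshold of 0.05. The standard error was the log2 difference divided by the square root of F. The procedure was tested on simulated data. CPM uses TMM-scaled library sizes, and levels per kilobase divide it by the length of the principal coding transcript. Copies were found with blastn 2.17.0. Paralog shares were compared by exact permutation tests. Replicate pairs differed by more than sampling noise (chi-square per gene of 3.46 to 9.57), and all libraries were counted as separate. That measure cannot show whether they came from separate animals.

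The members, gene lists and tests were chosen with earlier results of these data known. Named were Esr1, the 5 members with the smallest p in each direction and the 3 with the highest and lowest level per kilobase. Also named were paralogs, stalk proteins, Rps27a, Rpsa and the 3 pseudogenes with the most counts. Of each other list, up to 3 genes with the smallest unadjusted p were named. Some members are not reported by name here. Endothelial, fibroblast, blood and satellite cell markers had 3 of 8, 4 of 7, 0 of 4 and 1 of 3 tested genes higher in KO. Alternatives were RLE, upper-quartile and no scaling, other filters, DESeq2 1.42.0, limma voom (limma 3.58.1), a replicate block, leaving out each library, and members summed with pseudogenes. The fits with all copies summed or without Rpl24, and paralog shares with copies counted, were chosen after seeing the data.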

Additional observations from a re-analysis of the deposited data

How the results depend on the processing

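Of 565 values recomputed under an alternative, 517 kept their direction and their side of the threshold. The called genes, 0 as reported, were 19 without the filter on low counts, of which 1 was a member (Rps3a, log2 difference 0.43, adjusted p 0.0035), 2 with DESeq2 and 0 to 3 when 1 library was left out. The 3 came without WT replicate 1. Called members were 0 in every other fit, with the replicate block included. No clear pairing by replicate number was seen, though 3 libraries per genotype cannot exclude one. Deviations of same-numbered KO and WT libraries correlated at -0.01, 0.16 and 0.04. KO replicates 2 and 3 correlated best with their own number, and KO replicate 1 with WT replicate 3, at 0.14. The median of members was 0.07 with the block. The median log2 difference of members lay between 0.03 and 0.13 when 1 library was left out, and was 0.02 for the members without a counted pseudogene. The difference in share, 0.0239 percentage points, was 0.108 for members and pseudogenes together, which adds their counts, and 0.0124 to 0.0414 with 1 library left out. With 1 library left out, the difference in paralog share ranged from -1.99 to 0.826 percentage points for Rpl3l, -1.23 to 0.791 for Rps27l and -1.66 to 1.27 for Rpl22l1, whose log2 ratio of counts differed by -0.13. Counting the copies of both genes gave -4.22, -0.98 and 0.107.

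Signs of small log2 differences of single members turned, and the cause was not tested. Summed with pseudogenes, Rpl37 was at 0.0539, Rps29 at 0.214, Rps16 at -0.0337, Rps12 at 0.0712 and Rps15 at -0.0067 (0.0537, 0.214, -0.0340, 0.0716 and -0.0069 with all copies). Without scaling Rps4x was at 0.0013 and Rps12 at 0.0088, and Rps12 was at 0.0012 with upper-quartile scaling and at 0.0031 without the filter. With 1 library left out, ranges were -0.19 to 0.00036 for Rpl23, -0.00069 to 0.0779 for Rplp1, -0.0538 to 0.102 for Rpl8, -0.15 to 0.0032 for Rps29, -0.12 to 0.17 for Rps16, -0.0702 to 0.262 for Rpl21, -0.0564 to 0.215 for Rpl3, -0.0223 to 0.0880 for Rpl3l, -0.0553 to 0.0335 for Rps4x, -0.0052 to 0.18 for Rplp2, -0.0607 to 0.0535 for Rps12, -0.0098 to 0.186 for Rpl5 and -0.0265 to 0.0642 for Rpsa. The other members whose fitted values were compared kept their sign in these fits. Between 3 and 3 libraries, differences of the size of the median of members lie below what a single gene can show at this depth.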
